A study of Mus musculus with 2 samples.

Results

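The genes described here are 10 immediate early and stress genes, *Fos*, *Fosb*, *Jun*, *Junb*, *Jund*, *Egr1*, *Atf3*, *Ier2*, *Ier3* and *Nr4a1*, of the 32287 features counted in 1 single-cell library. They are a list of gene names. The library holds viable GFP+ cells sorted from skeletal muscle at 7 days post injury (7 dpi), after crush of the sciatic nerve in S100GFPtg mice, in which the S100B promoter drives green fluorescent protein. The tibialis anterior and gastrocnemius of male mice aged 2 months were minced and digested with enzymes for 60 minutes at 37 °C before the sort. The series text speaks of a single crushed mouse and the study's methods of pooled males, so the number of animals is not certain. There was 1 library and no replicate, and the GFP- fraction was not used here. All intervals below therefore cover counting error only, and no difference has a replicate check. Those of CPM and of ratios also leave out the spread between cells.

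Immediate early genes are transcribed within minutes of a stimulus, without new protein synthesis, and their mRNAs are short lived. Fos and Jun proteins pair through leucine zippers to form AP-1, a transcription factor that binds enhancers, while Egr1 and Nr4a1 are a zinc finger factor and an orphan nuclear receptor, and Atf3 is a bZIP factor induced by stress. Jun is also the regulator of the repair state that Schwann cells enter after nerve injury, and Atf3 is a marker of injured neurons and their glia. Tissue digestion is itself known to induce genes of this class. Its part in the levels below cannot be told apart from that of the injury, since all cells went through both.

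The library held 36400 barcodes and 170648616 UMIs (unique molecular identifiers, each standing for 1 captured mRNA end). Of the 8894 barcodes with at least 5000 UMIs, 8701 passed the filters on genes and mitochondrial UMIs, with a median of 11624 UMIs, and 7199 of these fell into 9 classes of at least 40 cells by their marker genes. The classes were 4727 macrophages, 1253 mesenchymal cells (fibroblasts), 400 tenocytes, 299 monocytes, 193 dendritic cells, 161 satellite cells and myoblasts, 75 Schwann cells, 48 smooth muscle cells and pericytes and 43 endothelial cells. Schwann cells were 0.862% of the deep barcodes sorted for a Schwann cell reporter, and all 12 of their markers were highest in their own class, as were 12 of 12 for macrophages and 10 of 10 for endothelial cells. The other classes had between 7 and 10 markers highest in their own class. *Gfp* transcripts were at 639.5 CPM (UMIs of a gene per 1000000 UMIs of the class) in Schwann cells, 1010.3 CPM in monocytes and 357.8 CPM in macrophages. A further 649 barcodes passed several gates and were left out, 814 passed none, and 372 barcode sequences were also in the barcode list of the GFP- library, of which 84 were deep.

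The promoters of *Fos*, *Jun* and *Atf3* are shown with motifs through which cAMP, growth factors and stress kinases are known to act. *Fos* and *Jun* moved together across classes, and *Atf3* was highest in Schwann cells at the limits used here. Of the 10 genes, 8 were matched in the RefSeq promoter windows (GRCm38.p6, 250 bases before the annotated start to 50 after). *Egr1* and *Ier2* were not matched. Capitals mark every match, on either strand, to the CRE core TGACG, to the site TGACNTCA (a full CRE or its variant in *Jun*, which holds the core when N is G), to the AP-1 site TGANTCA, to the serum response element core and, on the strand of the gene alone, to the TATA box TATAAA. The windows of *Fos* (chr12:85473640-85473939, plus strand), *Jun* (chr4:95052173-95052472, minus strand) and *Atf3* (chr1:191183284-191183583, minus strand) read 5′ to 3′:
Fos: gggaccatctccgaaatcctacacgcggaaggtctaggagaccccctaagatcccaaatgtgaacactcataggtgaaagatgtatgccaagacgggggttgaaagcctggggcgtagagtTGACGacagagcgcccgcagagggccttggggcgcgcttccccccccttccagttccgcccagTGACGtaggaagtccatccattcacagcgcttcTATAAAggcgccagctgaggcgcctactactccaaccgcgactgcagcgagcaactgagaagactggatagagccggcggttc
Jun: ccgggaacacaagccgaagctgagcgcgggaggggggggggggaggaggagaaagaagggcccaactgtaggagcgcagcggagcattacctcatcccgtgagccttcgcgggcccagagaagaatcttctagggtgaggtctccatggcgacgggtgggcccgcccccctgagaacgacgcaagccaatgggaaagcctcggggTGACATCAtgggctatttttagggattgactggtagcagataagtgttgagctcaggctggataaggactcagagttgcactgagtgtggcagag
Atf3: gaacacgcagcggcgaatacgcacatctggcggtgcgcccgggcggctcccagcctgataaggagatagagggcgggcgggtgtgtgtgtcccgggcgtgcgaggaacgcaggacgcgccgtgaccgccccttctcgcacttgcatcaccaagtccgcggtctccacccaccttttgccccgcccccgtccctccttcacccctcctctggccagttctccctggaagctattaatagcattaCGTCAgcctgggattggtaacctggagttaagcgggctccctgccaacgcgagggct

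*Fos* had the CRE core 129 and 66 bases before its start and a TATA box 33 bases before it. *Jun* had the TGACNTCA site 45 bases before its start, with A as the fifth base, and no CRE core in this window. *Atf3* had 1 CRE core, on the opposite strand, 7 bases before its start. Among the others, *Nr4a1* had 4 CRE cores, *Fosb* and *Junb* had 1 each, and *Jund* and *Ier3* had none of the 5 motifs. Over all 32851 windows of the same length, 20.8% held the CRE core, 8.83% the TGACNTCA site, 7.81% the AP-1 site, 1.63% the serum response element core and 8.32% the TATA box. *Junb* (chr8:84976909-84978748), *Jund* (chr8:70697739-70700616) and *Ier2* (chr8:84661331-84662852) share a chromosome in this build. These matches describe the letters of the windows and not binding.

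Each class had its own mixture of the 10 genes. Their summed level was 15252 CPM in smooth muscle cells and pericytes, 12438 in tenocytes, 11236 in macrophages, 10917 in mesenchymal cells, 10026 in endothelial cells, 9245 in satellite cells, 6066 in Schwann cells, 5855 in monocytes and 4954 in dendritic cells, so the classes spanned 3.08-fold. Every neighbouring pair in this order differed beyond counting error at the limits used here, but several steps did not hold under the alternatives. Counting error also leaves out the spread between cells. After thinning, the variance of the summed UMIs was 48.0 times their mean in endothelial cells and 4.72 times in monocytes, the highest and lowest values. Small steps may therefore not be resolved. Macrophages and mesenchymal cells no longer differed with mitochondrial UMIs under 5% (log2 ratio of mesenchymal cells to macrophages −0.004, −0.01 to 0.003, in place of −0.04). Schwann cells and monocytes were barely apart (log2 ratio 0.05, 0.002 to 0.10), and their CPM intervals already overlapped at the limits used here (5883 to 6253 against 5772 to 5940). Among other settings, they also overlapped with at least 3000 UMIs (5840 to 6191 against 5792 to 5959 CPM) and without the 1% of cells with most member UMIs (5683 to 6053 against 5687 to 5856 CPM). Endothelial cells stood below satellite cells with a gate of 2 times the marker UMIs (9785 against 10155 CPM) and above macrophages with mitochondrial UMIs under 5% (11503 against 11044 CPM) and with barcodes of several gates kept (11266 against 11149 CPM), with overlapping intervals in the first and the last case. The median cell held UMIs of 6 to 10 of the 10 genes after each cell was thinned to 5000 UMIs, with 6 in Schwann cells and monocytes and 10 in smooth muscle cells and pericytes. Between its highest and lowest class *Fos* spanned 5.77-fold, *Junb* 5.68-fold, *Fosb* 5.28-fold and *Jund* 3.05-fold.

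The low ends of the other 6 genes were not clear of background. Free RNA was read from 10 barcodes gated as red blood cells, which lack a nucleus (median depth 17426 UMIs). After thinning, 2 of the 10 held a UMI of *Egr1* and 2 of *Ier3* (20%, 2.52% to 55.6%), 1 held *Jun*, 1 *Atf3* and 1 *Ier2* (10%, 0.253% to 44.5%), and none held *Nr4a1*, which allows a share of up to 30% by a limit of 3 counts and 30.8% by the exact interval. Globin was 94.3% of the red cell UMIs, so at the same total depth these barcodes held far fewer other UMIs than the classes did, and their shares are not matched to the classes in that respect. The thinned shares of *Jun* and *Egr1* in monocytes and dendritic cells, of *Atf3* in tenocytes and monocytes, of *Ier2*, *Ier3* and *Nr4a1* in Schwann cells and of *Ier3* in dendritic cells did not exceed the upper bounds of the red cell shares. No span is given for these 6 genes, and the folds printed for those classes below carry this limit. Levels are compared below between classes and not between genes.

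**Figure D1:**
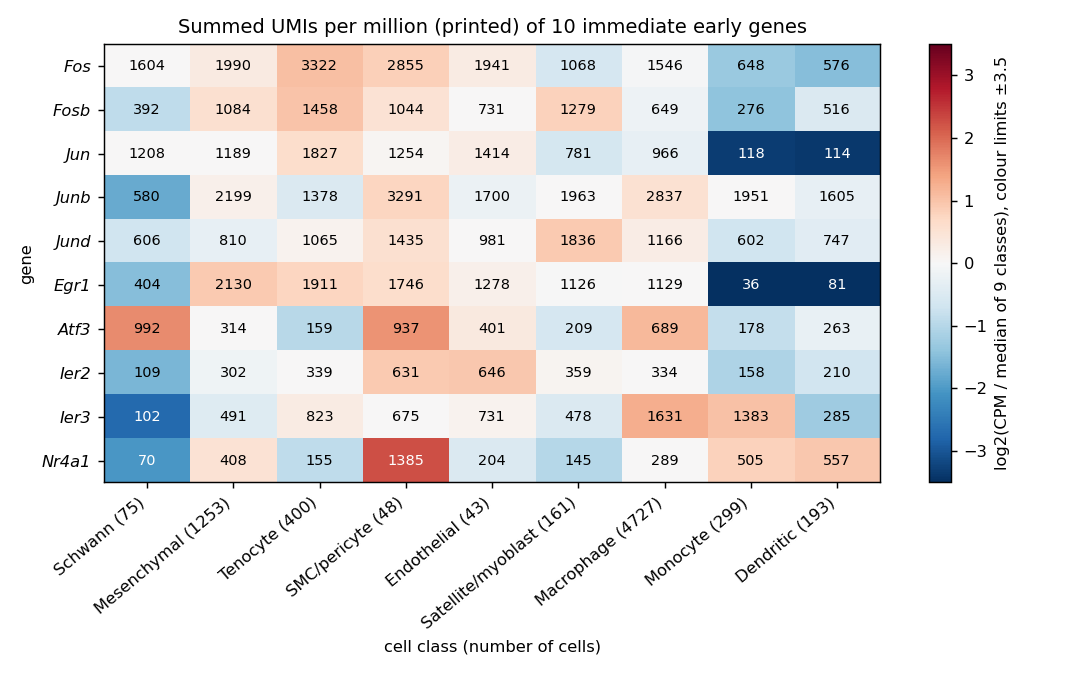
Level of each of the 10 genes (rows) in each of the 9 classes (columns, with cell numbers), printed as CPM and coloured by the log2 of CPM over the gene's median of the 9 classes. *Jun* and *Egr1* are darkest blue in monocytes and dendritic cells, and *Atf3* is red in Schwann cells while *Junb*, *Ier2*, *Ier3* and *Nr4a1* are lowest there.

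*Fos* and *Fosb* were both highest in tenocytes at the limits used here, but these leads varied with the mitochondrial share. In the 16 smooth muscle cells and pericytes with the lowest mitochondrial percent, *Fosb* was at 1597 CPM. The 134 tenocytes lowest in that percent had 1518 CPM, and no interval was computed for these groups. With mitochondrial UMIs under 5%, the 4 smooth muscle cells and pericytes left had 5543 CPM of *Fos* (4757 to 6423) against 3401 in tenocytes, and 2599 CPM of *Jun* (2070.4 to 3222) against 1865. At the limit used here *Fos*, which encodes the main inducible partner of Jun, was at 3322 CPM in tenocytes, 2855 in smooth muscle cells and pericytes, 1989.9 in mesenchymal cells, 1941 in endothelial cells, 1604 in Schwann cells, 1546 in macrophages, 1068 in satellite cells, 648 in monocytes and 576 in dendritic cells. Mesenchymal and endothelial cells did not differ beyond counting error, nor did Schwann cells and macrophages (log2 ratio 0.05, −0.03 to 0.14). That last call depended on the filters, since the ratio was 0.26 (0.16 to 0.36) with at least 8000 UMIs and 0.18 (0.09 to 0.27) with mitochondrial UMIs under 5%. The mean of CPM over cells gave −0.05, of the other sign and as near to level, without an interval of its own. *Fosb*, its paralog, was at 1458 CPM in tenocytes, 1279 in satellite cells, 1084 in mesenchymal cells, 392 in Schwann cells and 276 in monocytes, the lowest. Schwann cells thus kept a *Fos* level in the middle of the order, rank 5 of 9, with *Fosb* at rank 8 of 9. *Fos* was unevenly spread over Schwann cells, with a median of 4 UMIs per thinned cell, a 90th percentile of 18.6 and a highest value of 45.

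*Jun* was low in 2 of the myeloid classes and at 781 CPM or more in the others. It was at 1827 CPM in tenocytes, 1414 in endothelial cells, 1254 in smooth muscle cells and pericytes, 1208 (95% interval 1127 to 1293) in Schwann cells, 1189 in mesenchymal cells, 966 in macrophages, 781 in satellite cells, 118 in monocytes and 114 in dendritic cells. In the last 2 it was detected in 31.1% of thinned cells, against 46.2% and 53.4% unthinned, beside 1 thinned and 3 unthinned of 10 red cell barcodes. Smooth muscle cells, Schwann cells and mesenchymal cells were neighbours that did not differ beyond counting error. Schwann cells, where Jun drives the repair state, were therefore not the class with most *Jun*. Their log2 ratio was 0.02 to mesenchymal cells (−0.08 to 0.12) and 0.32 to macrophages (0.22 to 0.42). *Jun* was detected in 92.0% of thinned Schwann cells (83.4% to 97.0%) and in 97.3% unthinned, against 92.7% of thinned mesenchymal cells and 82.2% of macrophages. The median Schwann cell held 6 *Jun* UMIs after thinning, and the lowest and highest held 0 and 17.

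The share of *Jun* held by its highest cells was smallest in the Schwann class. The 10% of Schwann cells with most *Jun* held 24.5% of its thinned UMIs, against 27.5% in tenocytes, 29.9% in mesenchymal cells, 35.1% in macrophages and 47.4% in endothelial cells. The variance of *Jun* UMIs was 2.94 times their mean in Schwann cells, against 4.40 in mesenchymal cells, 6.19 in macrophages and 13.1 in endothelial cells, but it was lower still in monocytes (2.54) and dendritic cells (2.66), where most thinned cells held no *Jun* UMI. Within Schwann cells the same 10% share was 43.0% for *Fos* and 44.9% for *Egr1*.

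**Figure D2:**
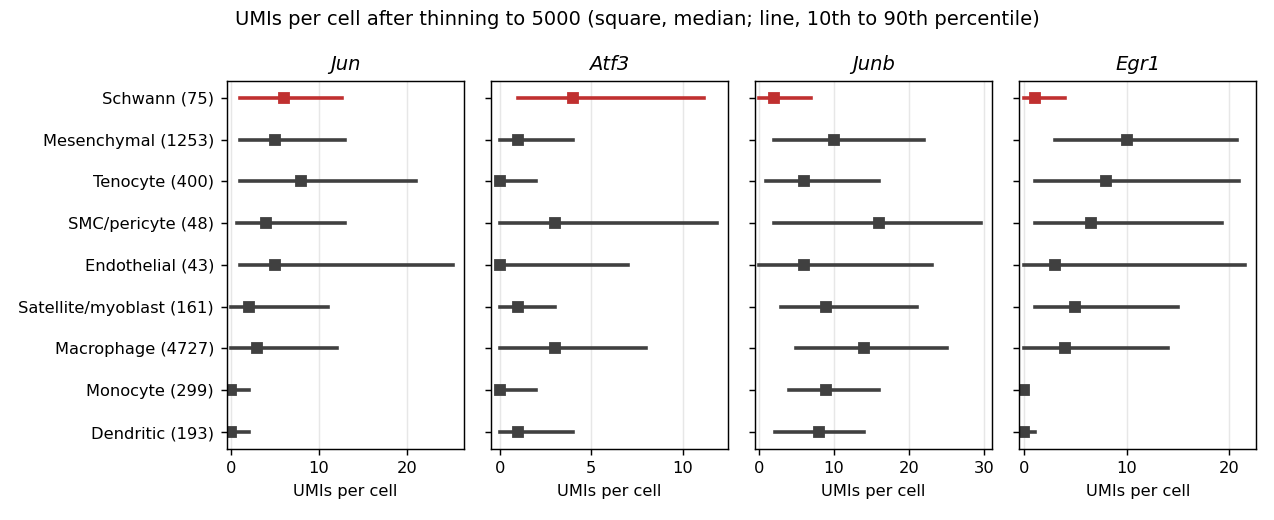
UMIs per cell of *Jun*, *Atf3*, *Junb* and *Egr1* (x axes) in each class after thinning every cell to 5000 UMIs, with the median as a square and the 10th to 90th percentile as a line, Schwann cells in red. Schwann cells reach a median of 6 for *Jun* and 4 for *Atf3*, but 2 for *Junb* and 1 for *Egr1*.

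The other Jun proteins took a different order. *Junb*, whose product is a weaker activator than Jun, was lowest in Schwann cells at 579.8 CPM (524.2 to 639.7), against 1378 in tenocytes, the next class up, 2199 in mesenchymal cells, 2837 in macrophages and 3291 in smooth muscle cells and pericytes. Monocytes (1951 CPM) and dendritic cells (1605 CPM), which had little *Jun*, kept *Junb*. *Jund*, the member of the family with the steadiest expression, was highest in satellite cells at 1836 CPM and lowest in monocytes at 602 CPM and Schwann cells at 606 CPM, which did not differ beyond counting error. Thinned Schwann cells held a median of 2 *Junb* UMIs and macrophages 14, and the 90th percentile of Schwann cells (7) lay below the macrophage median.

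*Egr1* was highest in mesenchymal cells. It was at 2130.4 CPM in mesenchymal cells, 1911 in tenocytes, 1746 in smooth muscle cells and pericytes, 1278 in endothelial cells, 1129 in macrophages, 1126 in satellite cells, 404 in Schwann cells, 81 in dendritic cells and 36 in monocytes. Macrophages and satellite cells did not differ beyond counting error. *Egr1* was detected in 60.0% of thinned Schwann cells (48.0% to 71.1%), 65.3% unthinned, and in 96.7% of thinned mesenchymal cells. The share in monocytes (9.70% thinned, 18.7% unthinned, median depth 10412 UMIs) was below the 20% of red cell barcodes, thinned and unthinned, and cannot be told from background. The share in dendritic cells was 18.1% thinned and 40.9% unthinned (median depth 14398 UMIs), against 20% of red cell barcodes in both cases.

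*Nr4a1* took an order of its own. This orphan nuclear receptor gene was at 1385 CPM in smooth muscle cells and pericytes, 557 in dendritic cells, 505 in monocytes, 408 in mesenchymal cells, 289 in macrophages, 204 in endothelial cells, 155 in tenocytes, 145 in satellite cells and 69.9 (51.6 to 92.7) in Schwann cells. Tenocytes and satellite cells did not differ beyond counting error. The 2 classes with least *Jun* were thus next after smooth muscle cells for *Nr4a1*. It was detected in 9.33% of thinned Schwann cells (3.84% to 18.3%) and 18.7% unthinned, against 85.0% of thinned dendritic cells. With only 10 red cell barcodes, the Schwann share cannot be told from background.

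*Atf3* was the member in which Schwann cells stood first at the limits used here. It was at 992 CPM (919 to 1069) in Schwann cells and 937 (856 to 1025) in smooth muscle cells and pericytes, which did not differ beyond counting error, then 689 in macrophages, 401 in endothelial cells, 314 in mesenchymal cells, 263 in dendritic cells, 209 in satellite cells, 178 in monocytes and 159 in tenocytes. The order of the first 2 varied with mitochondrial percent. In 3 equal groups from lowest to highest percent, smooth muscle cells and pericytes had 1213, 1036 and 585 CPM (16 cells each). Schwann cells had 943, 1048 and 978 CPM (25 cells each). *Atf3* was detected in 96.0% of thinned Schwann cells (88.8% to 99.2%) and in all 75 unthinned, against 64.9% of thinned mesenchymal cells, 32.0% of tenocytes and 1 of 10 red cell barcodes. Tenocytes were lowest for *Atf3*, while they were highest for *Fos*, *Fosb* and *Jun* at the limits used here.

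The genes *Ier2* and *Ier3*, which encode a small nuclear protein and an inhibitor of apoptosis, were both lowest in Schwann cells. *Ier2* was at 109 CPM there, 158 in monocytes, 334 in macrophages, 631 in smooth muscle cells and pericytes and 646 in endothelial cells, the last 2 not differing beyond counting error. It was detected in 30.7% of thinned Schwann cells (20.5% to 42.4%), which did not stand clear of the 1 of 10 red cell barcodes. *Ier3* was at 102 CPM in Schwann cells and 1631 in macrophages, 1383 in monocytes and 823 in tenocytes. Its share of thinned Schwann cells, 25.3% (16.0% to 36.7%), did not stand clear of the 2 of 10 red cell barcodes.

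**Figure D3:**
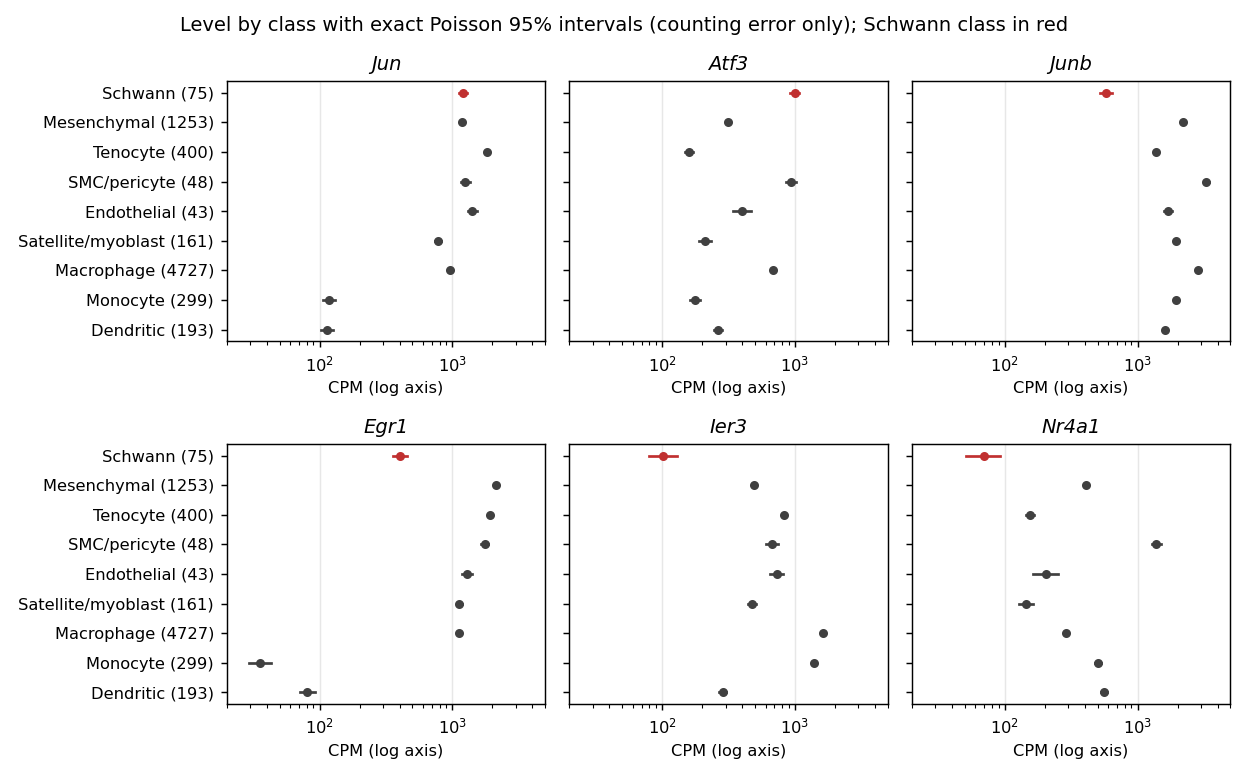
CPM of 6 genes (log x axes) in the 9 classes (y axis, cell numbers in brackets) with exact Poisson 95% intervals, Schwann cells in red. Schwann cells lie at 1208 CPM for *Jun*, within the range of the other stromal classes, at the top for *Atf3* (992 CPM) and at the bottom for *Junb* (579.8 CPM), *Ier3* (102 CPM) and *Nr4a1* (69.9 CPM).

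Set against mesenchymal cells, Schwann cells had more *Atf3* (log2 ratio 1.66, 1.54 to 1.78) and less of 6 other members. The 6 lower by 2-fold or more were *Nr4a1* (5.83-fold), *Egr1* (5.28-fold), *Ier3* (4.81-fold), *Junb* (3.79-fold), *Fosb* (2.77-fold) and *Ier2* (2.77-fold), while *Fos*, *Jun* and *Jund* were within 2-fold. Over all 10100 genes tested, 26.3% were higher and 17.6% lower by this measure, so 1 of 10 was under and 6 of 10 above the background share. The median log2 ratio was −1.47 for the members and 0.40 for all genes. Set against macrophages, none of the 10 was higher (34.7% of 10113 genes) and 5 were lower by 2-fold or more (18.6%), with medians of −1.21 and 0.51. The 5 were *Ier3* (16.0-fold), *Junb* (4.89-fold), *Nr4a1* (4.14-fold), *Ier2* (3.05-fold) and *Egr1* (2.80-fold). The Schwann levels of *Ier2*, *Ier3* and *Nr4a1* in both sets of folds were not clear of background.

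Some RNA of the abundant classes was counted in Schwann cells. The 12 macrophage markers summed to 806 CPM there and to 38484 in macrophages, and the 13 mesenchymal markers to 1655 CPM there and to 46655 in mesenchymal cells. The macrophage genes *C1qa*, *C1qb* and *C1qc* stood in Schwann cells at 0.387% of their macrophage level and the mesenchymal gene *Col3a1* at 1.96% of its mesenchymal level. At those shares macrophages would bring 3.74 CPM and mesenchymal cells 23.3 CPM of the 1208 CPM of *Jun*, and 2.67 and 6.14 CPM of the 992 CPM of *Atf3*. Schwann cells were shallower, with a median of 8129 UMIs against 15825 in mesenchymal cells, and had more of the nuclear RNA *Malat1* (45470.4 CPM against 15349 in mesenchymal cells and 10037 in macrophages), whose part in the result was not tested.

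Between mesenchymal cells and macrophages the counts of members past 2-fold were near or below the shares over all genes. No member was higher in mesenchymal cells by 2-fold or more (23.2% of 9570 genes) and 2 were lower (19.1%), *Ier3* by 3.32-fold and *Atf3* by 2.20-fold. *Egr1* was 1.89-fold higher in mesenchymal cells, just within 2-fold. Median log2 ratios were 0.08 for the members and 0.07 for all genes. Between endothelial and mesenchymal cells only *Ier2* was past 2-fold upwards (2.14-fold, with 21.6% of 9812 genes higher) and no member downwards (15.4%), with *Nr4a1* just inside the limit at 2.00-fold lower.

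Monocytes, from which many muscle macrophages arise after injury, had less of most members than macrophages, a comparison added after the levels were seen. *Egr1* stood at 36 against 1129 CPM, and the first could not be told from background. *Jun* was lower by 8.15-fold (log2 ratio −3.03, −3.18 to −2.88), *Atf3* by 3.88-fold, *Fos* by 2.39-fold, *Fosb* by 2.35-fold and *Ier2* by 2.11-fold. The monocyte levels of *Jun* and *Atf3* in these folds were not clear of background either. That was 6 of 10 lower by 2-fold or more, where 18.0% of 8081 genes were, and 0 of 10 higher, where 7.09% were. *Jund* (1.94-fold lower), *Junb* (1.45-fold lower) and *Ier3* (1.18-fold lower) were within 2-fold, and *Nr4a1* was 1.74-fold higher. C1q transcripts in monocytes were at 2.76% of the macrophage level, a share that would bring 26.6 of their 118 CPM of *Jun* and 31.1 of their 36 CPM of *Egr1*.

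Levels also differed within the macrophage class. Of its cells, 862 were resident-like (*Lyve1*, *Folr2*, *Fcna*, *Cd163*, *Timd4*), 399 lipid-associated-like (*Gpnmb*, *Fabp5*, *Trem2*, *Spp1*, *Lgals3*), 1166 high in MHC class II genes and 2300 in none of these. The summed level was 6768 CPM in lipid-associated-like cells, against 11682 in resident-like and 11529 in MHC class II high cells. Lipid-associated-like cells had 334 CPM of *Egr1* against 1319 in resident-like cells (log2 ratio −1.98, −2.04 to −1.92), 368 against 1230.4 CPM of *Jun* (−1.74), 124 against 422 of *Ier2* (−1.76) and 308 against 725 of *Atf3* (−1.23). That was 4 of 10 lower by 2-fold or more (14.8% of 8119 genes) and 0 higher (6.54%). *Junb* was nearest to level, at 2276 against 2746 CPM, and *Nr4a1* was higher, at 308 against 187 CPM. MHC class II high cells were higher than resident-like cells by 2-fold or more in 1 of 10 members (4.38% of 8108 genes), *Nr4a1* at 408 CPM, and lower in none (5.14%). The lipid-associated-like cells were deeper, with a median of 16739 UMIs against 12458, and the deepest of 3 equal groups of macrophages had a summed level of 10066 CPM against 12470 in the shallowest.

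Among mesenchymal cells, those closest to adventitial fibroblasts had least. The 242 adventitial-like cells (*Pi16*, *Dpp4*, *Cd55*, *Sema3c*) had a summed level of 8471 CPM, against 13048 in 106 parenchymal-like cells (*Smoc2*, *Cxcl14*, *Hsd11b1*), 13163 in 149 *Gdf10*-like cells, 12043 in 193 cells high in *Dkk2*, *Bmper* and *Lsamp*, and 9227 in 47 nerve-sheath-like cells. *Jun* was at 689 CPM in adventitial-like and 1936 in parenchymal-like cells (log2 ratio −1.49, −1.56 to −1.42), *Fosb* at 571 and 1603, and *Ier2* at 206 and 428. Those 3 were the members lower by 2-fold or more (9.77% of 8918 genes), and *Atf3* was the 1 higher (10.7%), at 359.97 against 179.65 CPM. *Junb* and *Egr1* were nearer to level, with log2 ratios of −0.14 and −0.27.

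**Figure D4:**
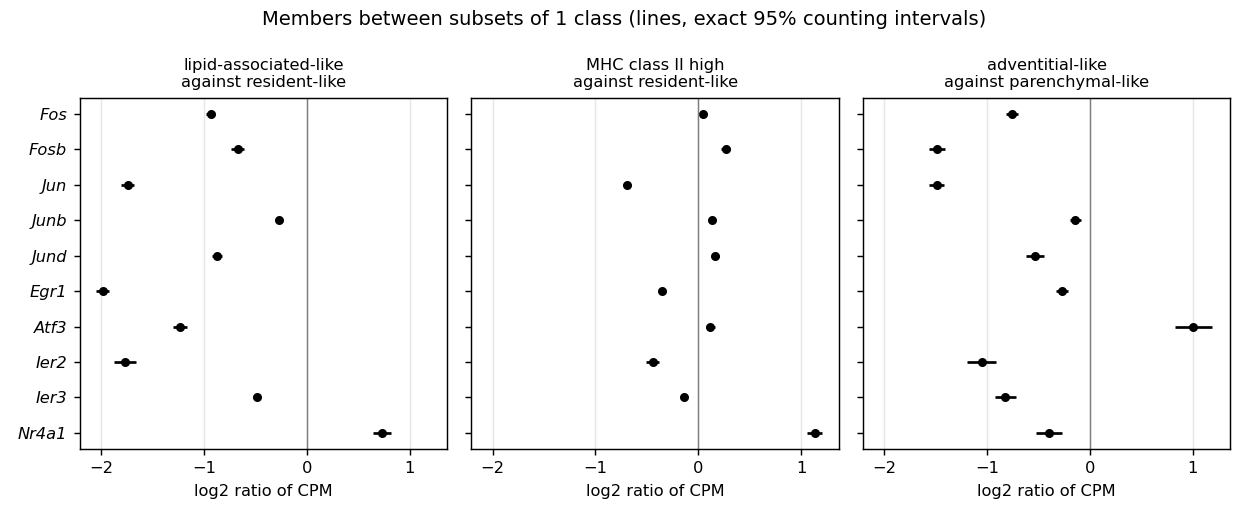
Log2 ratio of CPM (x axes) of each of the 10 genes (y axis) between subsets of 1 class, with exact 95% counting intervals as lines, many narrower than the points. *Jun*, *Egr1* and *Ier2* lie furthest below 0 in lipid-associated-like against resident-like macrophages, *Nr4a1* lies above 0 there, and *Atf3* lies above 0 in adventitial-like against parenchymal-like mesenchymal cells.

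The members were tied to each other to different degrees in single cells. Over 4727 macrophages thinned to 5000 UMIs, Pearson r of log counts was 0.58 for *Fos* and *Jun*, 0.54 for *Jun* and *Egr1*, 0.51 for *Fos* and *Egr1*, 0.47 for *Junb* and *Ier3* and −0.25 for *Jun* and *Nr4a1*, with a median of 0.23 over the 45 pairs. In mesenchymal cells the highest values were 0.55 for *Fos* and *Fosb* and 0.53 for *Junb* and *Egr1*. In the 75 Schwann cells *Fos* and *Egr1* had 0.65, and *Atf3* had 0.35 with *Fos*, 0.31 with *Egr1* and 0.30 with *Jun*. In the 43 endothelial cells 44 of 45 pairs were above 0.3, with a median of 0.59 and the lowest value, 0.23, for *Atf3* and *Ier2*. The lowest median was 0.07, in monocytes, where 31.1% of thinned cells held *Jun* and 9.70% *Egr1*. Cells of a class share the library, the dissociation and the thinned depth, and these values are descriptions.

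**Figure D5:**
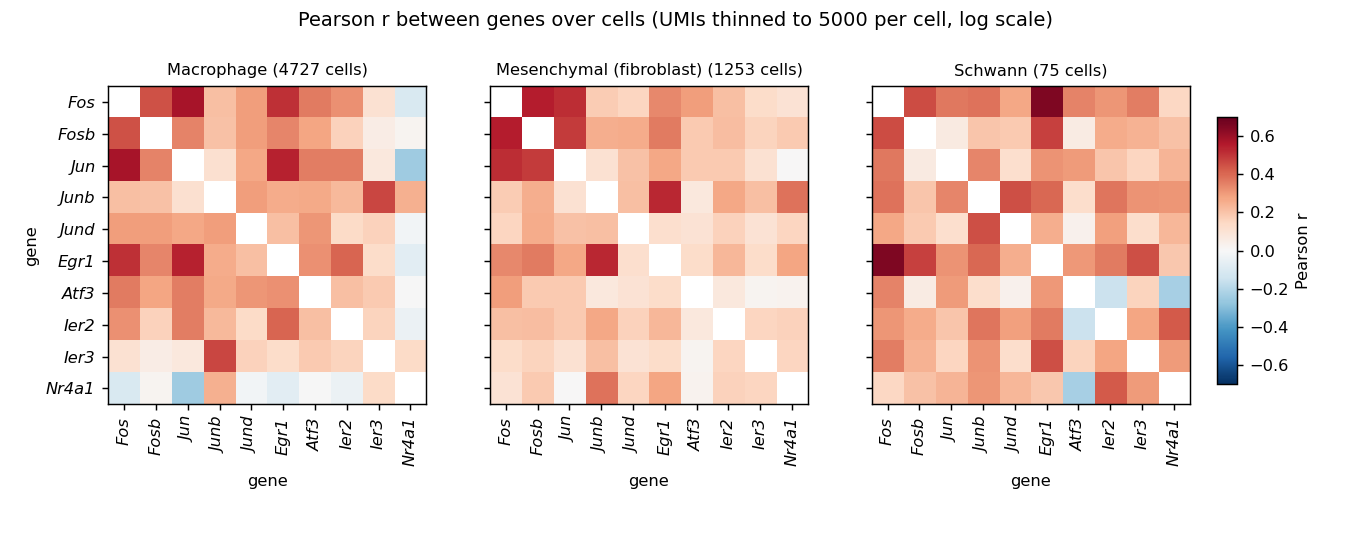
Pearson r between each pair of the 10 genes (rows and columns) over the cells of 3 classes, from log counts after thinning to 5000 UMIs per cell. The block of *Fos*, *Jun* and *Egr1* reaches 0.51 to 0.58 in macrophages, and *Nr4a1* is near or below 0 with most members there.

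Across the 9 classes the same trio moved together. Pearson r of log2(CPM + 10) was 0.93 for *Jun* and *Egr1*, 0.92 for *Fos* and *Jun* and 0.87 for *Fos* and *Egr1*, but −0.06 for *Jun* and *Junb* and −0.37 for *Jun* and *Nr4a1*. The monocyte and dendritic values of *Jun* and *Egr1* that enter here were not clear of background. *Junb* instead went with *Nr4a1* (0.76) and *Ier3* (0.75). The Schwann values of *Nr4a1* and *Ier3* and the dendritic value of *Ier3* were not clear of background either. Of 10105 other genes, those with the pattern most like the summed members over the 9 classes were *Phyhd1*, *Cenpb*, *Tceal9*, *Igfbp4*, *Tns1*, *Spg20*, *Eef2k*, *Smim27*, *Hebp1* and *Lage3*, with r from 0.90 to 0.95. With 9 points and so many genes, values of this size carry little weight.

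The wider set of early response genes was also low in Schwann cells. Of 42 other immediate and delayed early genes tested, 3 were higher and 19 lower by 2-fold or more than in mesenchymal cells, where 26.3% and 17.6% of all genes were, with a median log2 ratio of −0.80 against 0.40 for all genes. The 3 higher were *Gadd45a*, a growth arrest gene (509.9 against 53.3 CPM), *Plk2* (133 against 35.2 CPM) and *Dusp6*, an ERK phosphatase (71.4 against 15.9 CPM). Among the lower were *Ccn2* (2.91 against 319 CPM), *Myc* (32.1 against 239 CPM), *Klf4* (167 against 933 CPM) and *Nr4a3* (30.6 against 164 CPM). Against macrophages the counts were 4 and 25 of 42, where 34.7% and 18.6% of all genes were. Of 15 other AP-1 and related bZIP genes tested against mesenchymal cells none was higher and 7 were lower, against the same 26.3% and 17.6%, *Mafk* (4.37 against 47.5 CPM), *Cebpb* (105 against 605 CPM), *Atf5* (39.3 against 138 CPM) and *Cebpd* (223 against 746 CPM) by most. Against macrophages 2 of 17 were higher and 8 lower.

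Genes linked to Jun in the repair state of Schwann cells are given as levels, since many of them reached the minimum of 10 CPM through the Schwann class alone and a count of those higher there would follow from that. The neurotrophin receptor gene *Ngfr* was at 622 CPM in Schwann cells and 3.95 in mesenchymal cells, the growth factor gene *Btc* at 1011 and 2.03, and the neurotrophic factor gene *Gdnf* at 229 and 2.08. *Olig1* was at 198 and *Sox2* at 221 CPM in Schwann cells, while *Bdnf* was at 8.74 CPM there and 31.5 in mesenchymal cells. *Ngfr* is also one of the genes that defined the Schwann class, as is *Gap43*, so this list is not independent of the class. Of 13 reported AP-1 target genes tested, 4 were higher (*Vim* at 7109 against 2886 CPM, *Ccnd1*, *Plaur* and *Hbegf*) and 6 lower, with *Il6* at 7.28 against 513 CPM, *Cxcl1* at 35.0 against 959 CPM and *Ccl2* at 29.1 against 357 CPM. All genes had 26.3% higher and 17.6% lower in this comparison. Against macrophages 5 of 14 were higher and 6 lower, where 34.7% and 18.6% of all genes were.

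Heat shock and stress genes took both directions. Of 18 heat shock genes 1 was higher in Schwann cells than in mesenchymal cells, the small heat shock gene *Cryab* (3607 against 81.4 CPM), and 3 were lower, *Hspb1*, *Dnajb4* and *Hspa1b*, where 26.3% and 17.6% of all genes were. Against macrophages 4 were higher and 2 lower (34.7% and 18.6% of all genes), the latter being *Hspa1a* (39.3 against 203 CPM) and *Hspa1b* (23.3 against 60.0 CPM), which are strongly induced by heat and protein damage. Of 9 integrated stress and unfolded protein response genes tested against mesenchymal cells none was higher and 2 were lower, *Hmox1* (7.28 against 197 CPM) and *Asns*. Of 8 tested against macrophages 1 was higher, *Ddit4*, and 3 were lower, *Hmox1*, *Sdf2l1* and *Dnajb9*. Among 20 upstream kinases and serum response factors 2 were higher, *Map2k1* (150.1 against 31.9 CPM) and *Mapk3* (115 against 44.3 CPM), and 2 lower than in mesenchymal cells. Of 19 tested against macrophages 3 were higher, *Mapk9*, *Map2k1* and *Mapk8*, and 5 were lower, with *Map3k20*, *Mapkapk2*, *Map2k3* and *Elk3* by most. The shares over all genes are those given above for either comparison.

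Depth and mitochondrial share, which follow cell quality, moved with the levels in some classes, and their part in the results was not tested. Cells of each class were put into 3 equal groups by either measure. In macrophages the summed level was 10157 CPM in the group with the lowest mitochondrial percent and 12097 in the highest, with *Jun* at 814 and 1120.4. In satellite cells it was 13060.2 CPM in the shallowest group and 6695 in the deepest. In endothelial cells the 3 depth groups (15, 14 and 14 cells) had 16992, 6685 and 9080.5 CPM, shallowest first. *Jun* was at 2692, 663 and 1308 there and *Ier2* at 1340, 433 and 493. With at least 8000 UMIs endothelial cells had 1259 CPM of *Jun*, below 1396 in smooth muscle cells and pericytes, with overlapping intervals. In Schwann cells the 3 depth groups of 25 cells had 4553, 8332 and 5344 CPM, with *Jun* at 1265, 1383 and 1071, *Fos* at 817, 2611 and 1336 and *Egr1* at 198, 718 and 301. Smooth muscle cells and pericytes had a median of 7.27% mitochondrial UMIs, the highest of the classes. Under a limit of 5% only 4 of the 48 were left, with *Fos* at 5543 and *Jun* at 2599 CPM in place of 2855 and 1254. Over all barcodes the summed level was 9293 CPM between 1000 and 2000 UMIs, 11336 between 5000 and 10000 and 8455 above 20000.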

How the data were processed

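The values used are the deposited raw UMI counts of the GFP+ library per feature and barcode, which the authors made with Cell Ranger and did not normalize. The labels name Cell Ranger 7.1.0 and mm10, the file header names version 8.0.1, and the study's methods name another version with both GRCm38 and GRCm39. The counts carry no coordinates. The GFP- fraction was not used here. The members and gene lists were chosen with earlier results of these data known.

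Barcodes with at least 5000 UMIs, over 200 genes and under 10% mitochondrial UMIs were kept. Each was thinned to 5000 UMIs (seed 11) and put in a class when enough distinct markers of that class had a UMI. The smallest numbers of markers were 4 for Schwann cells, 7 for macrophages, 5 for monocytes, 4 for dendritic cells, 7 for mesenchymal cells, 5 for tenocytes, 4 for endothelial cells, 5 for smooth muscle cells and pericytes and 3 for satellite cells. They were set from marker UMIs alone. Barcodes that passed several gates were left out as possible doublets, with 1 exception. Those that passed the tenocyte and mesenchymal gates were kept as tenocytes, which also express collagen genes of the mesenchymal list. The tenocyte class held 38786 CPM of the mesenchymal markers, against 46655 in mesenchymal cells, so doublets of these 2 classes were not left out. No doublet caller and no removal of free RNA was run, so doublets within a class remain. Subsets of macrophages and mesenchymal cells were cut from the thinned UMIs of their own marker lists, so they are ranges and not types.

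CPM is the summed UMIs of a gene in a class over all UMIs of that class, times 1000000. Intervals are exact Poisson (CPM), exact Clopper-Pearson (shares of cells) and exact conditional (ratios) at 95%, and cover counting error only. With 1 library there was no test between groups, and no p-value was computed. A gene was tested between classes when it reached 10 CPM in 1 of them, and called past 2-fold. The text names the 10 members in each class and, from each list, at most 4 genes past 2-fold in each direction with the largest fold. Genes alike to the members were ranked by Pearson r of log2(CPM + 10) over the classes among genes with at least 20 CPM in 1 class. Promoter windows came from RefSeq (GRCm38.p6). The scripts were tested on simulated data and ran in Python 3.11.15 with numpy 2.4.6, scipy 1.17.1 and pandas 2.3.3.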

Additional observations from a re-analysis of the deposited data

How the results depend on the processing

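No paired analysis was possible because 1 library was analysed, and for the same reason no replicate could be left out. The log2 ratio of *Jun* between Schwann and mesenchymal cells stayed between −0.03 and 0.07 under 8 alternatives (other UMI minimums, a stricter or no mitochondrial limit, another gate, barcodes of several gates kept, means over cells, and the 1% of cells with most member UMIs left out). The order of classes by summed level changed at 3 places with mitochondrial UMIs under 5%, at 3 with barcodes of several gates kept and at 2 with a gate of 2 times the marker UMIs, and in each case the endothelial class was among those that moved. Under 5% mitochondrial UMIs only 4 smooth muscle cells and pericytes were left, at 21610 CPM, so the level of this class rests on cells between 5% and 10%. With no mitochondrial limit it was 15748 CPM, against 15252 at the limit used here. Counts of genes past 2-fold followed the filter and the fold by construction. With at least 50 CPM, 1159 genes were higher and 857 lower in Schwann than in mesenchymal cells, 1486 and 1013 than in macrophages, 992 and 985 in mesenchymal cells than in macrophages, and 915 and 794 in endothelial than in mesenchymal cells. At 4-fold, 975 were higher and 880 lower in Schwann than in mesenchymal cells, 1750 and 1003 than in macrophages, 973 lower in mesenchymal cells than in macrophages, and 917 and 638 in endothelial than in mesenchymal cells. With no filter, 12146 were higher in Schwann than in mesenchymal cells, 14019 than in macrophages, 9724 higher and 3703 lower in mesenchymal cells than in macrophages, and 12327 higher in endothelial than in mesenchymal cells. Classes of 43 to 75 cells limit the precision for endothelial, smooth muscle and Schwann cells.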
